A study of Homo sapiens with 6 samples.

Results

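Sprouty and SPRED proteins are feedback inhibitors of the RAS-ERK cascade, and their transcripts were followed here in an osimertinib-resistant lung adenocarcinoma line and its control. The set held 8 genes, chosen by symbol from the 30330 Ensembl genes of the deposited tables: SPRY1, SPRY2, SPRY4, SPRED1, SPRED2, SPRED3, PHLDA1 and IER3. All 8 were found under 1 Ensembl identifier each, and all passed the filter on low values that left 24560 genes for testing. RNA-seq libraries came from NCI-H1975, a human lung adenocarcinoma line driven by mutant EGFR, and from H1975/OSI, a derivative selected with osimertinib, a kinase inhibitor of mutant EGFR. Selection ran through 0.03, 0.1, 0.3, 1 and 3 µM over 7 months, per the labels. There were 3 resistant libraries (titled Drug) and 3 control libraries of NCI-H1975 (titled Control). Whether osimertinib was present at harvest is not given in the sources used here, nor is whether H1975/OSI is a single clone. The labels do not tie the replicates to separate cultures. A p-value here therefore reflects the spread among the 6 libraries alone, and that spread may be technical.

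When a growth factor receptor such as EGFR is active, GRB2 and SOS load RAS with GTP, and RAF, MEK and ERK are switched on in turn. ERK then induces its own brakes. Sprouty proteins are phosphorylated on a tyrosine near their amino terminus, bind CBL and GRB2, and limit the step from receptor to RAS and RAF. SPRED proteins carry a Sprouty-related domain and bring the RAS GTPase-activating protein neurofibromin (NF1) to the membrane. PHLDA1, a pleckstrin homology-like domain protein, and IER3, an early response protein that ERK phosphorylates, are transcribed on ERK activation without being Sprouty relatives.

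Recovered reads per library ran from 15174126 to 16588479. The mitochondrial share of reads was 5.53 ± 0.178% in resistant and 6.88 ± 0.440% in control libraries (SD, n = 3). Of 10 lung epithelial markers 5 were lower and 2 higher, where 21.1% of all genes tested were lower and 20.4% higher. Their summed level ran from 42922 to 50321 normalized read counts in resistant and from 60121 to 63654 in control libraries. EPCAM fell from 379 ± 21.9 to 17.6 ± 2.03 (log2 fold change -4.36). CDH1 (-1.66), KRT19 (-1.18), KRT8 (-0.51) and KRT18 (-0.41) fell too, while MUC1 rose by a log2 fold change of 0.91. KRT19 varied among resistant libraries 1, 2 and 3 (7857, 4893 and 4872, against a control mean of 12960 ± 420). KRT7 (12803 ± 1139 in resistant against 13355 ± 528) and NAPSA (31.1 ± 6.42 against 20.3 ± 5.12) were not called. The lung factor NKX2-1 also rose and stood at 461 ± 21.0 normalized read counts in resistant and 287 ± 28.1 in control libraries, while the surfactant gene SFTPB was at 10 or less in every library. Of 8 fibroblast markers, 6 were analysed here, and 4 of these were higher and 0 lower. Their summed level was 33097 to 36279 in resistant against 5058 to 6076 in control libraries. COL1A2, at 29275 ± 1411 against 698 ± 62.5, made up most of the resistant sum. COL1A1 stood at 4963 ± 299.7 against 4808 ± 428 (not called). PDGFRB (134 ± 15.8 against 100 ± 24.6) and COL3A1 (11.4 ± 3.25 against 2.74 ± 2.20) were higher. LUM (higher) and THY1 (not called) were at 10 or less. Summed leukocyte markers (4 of 6 analysed) ran from 273 to 322 in resistant against 453 to 482 in control libraries. The markers PTPRC and CD3E were not found among the deposited genes, so they are not in these sums. CD14, at 266 ± 32.6 against 387 ± 0.794 (lower), made up most of both sums. CORO1A was lower too (log2 fold change -1.23), and LAPTM5 was not called (-0.52). Summed endothelial markers (5 of 5) ran from 558 to 761 against 294 to 336. Of the endothelial markers CDH5 was higher (579 ± 105 against 126 ± 3.37) and PECAM1 lower (83.3 ± 5.0 against 181 ± 21.4). CD68, VWF, KDR and CLDN5 were at 10 or less in every library. The part of these markers in the results below was not tested. In bulk RNA, fewer cells of a type and less RNA per cell cannot be told apart.

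Resistant cells carried less of most of these feedback transcripts, and the Sprouty genes did not move together. SPRY4 and PHLDA1 fell by the most, SPRY2, SPRED1 and SPRED2 fell by small amounts, SPRY1 rose, and SPRED3 and IER3 did not pass the test. In counts, 5 of 8 were lower and 1 of 8 was higher (limma, Benjamini-Hochberg adjusted p under 0.05 over all genes tested). Over all 24560 genes, 21.1% were called lower and 20.4% higher. That larger set also holds noncoding genes and genes with few reads, whereas the 8 are all protein-coding. The 8 were chosen with earlier results of these data known. The median log2 fold change, resistant minus control on the log2(normalized read count + 1) scale, was -0.33 over the 8 genes and 0.01 over all genes tested. The libraries of the 2 groups did not overlap for 6 of the 8, with 5 below and 1 above control, against 50.1% of all genes without overlap, 25.4% below and 24.7% above. Median centring, which shifted all log2 fold changes by -0.13, left these counts of calls at 5 and 1.

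**Figure D1:**
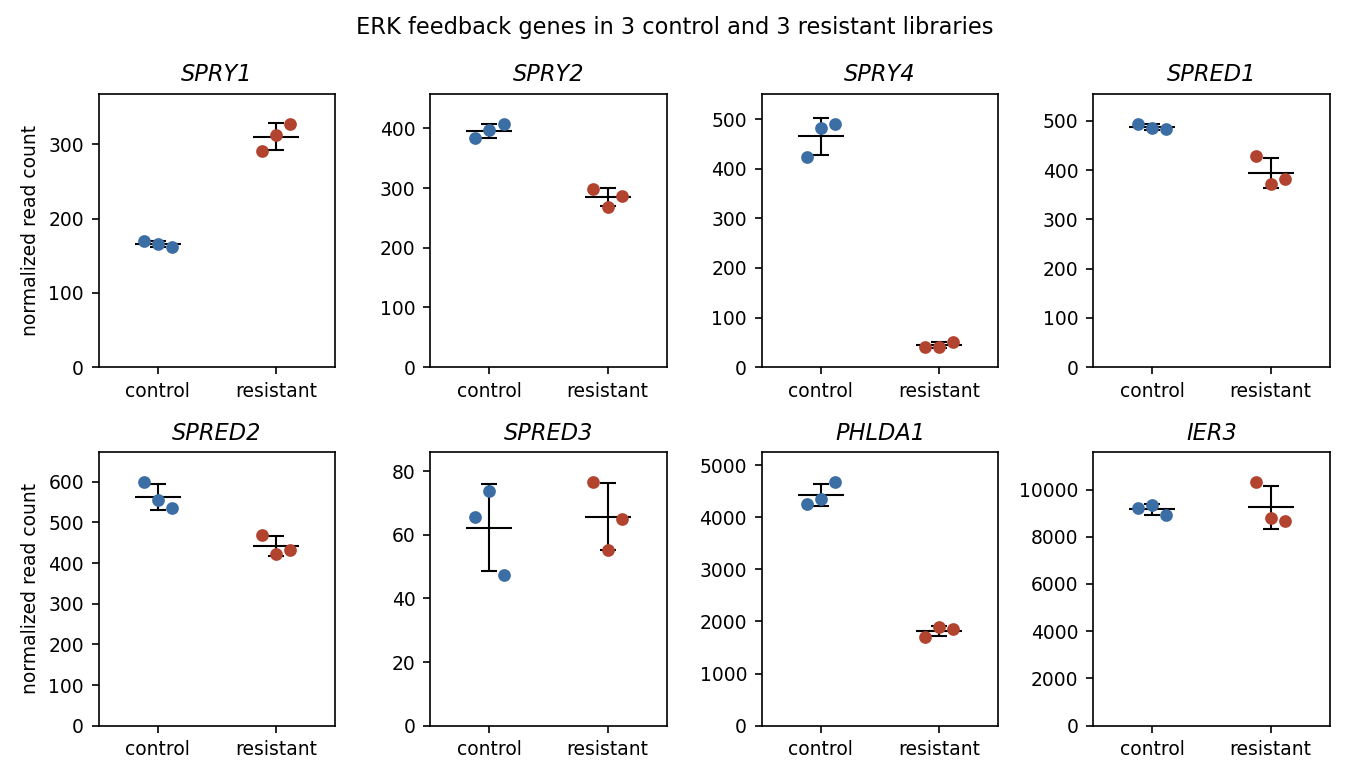
Normalized read counts (y axis, from 0, a separate scale per gene) of the 8 genes in 3 control libraries (blue) and 3 resistant libraries (red); bars are the mean and SD. SPRY1 is the gene whose resistant points all lie above control, and the points of SPRED3 and IER3 overlap.

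SPRY4, a Sprouty gene that is among the usual readouts of ERK activity, fell the most of the 8. Its normalized read counts were 40.8, 41.5 and 51.3 in resistant libraries 1, 2 and 3 and 423, 482 and 491 in control libraries 1, 2 and 3. Every resistant library lay far below every control library. The group means were 44.5 ± 5.86 and 465 ± 36.8 (SD, n = 3), 10.4-fold lower in the resistant line, with a log2 fold change of -3.36 ± 0.14 (SE; 95% interval -3.65 to -3.07; limma adjusted p = 3.80e-15). This rests on 40 to 52 reads per resistant library and 412 to 509 per control library. Of the 24560 genes, 79 had a lower log2 fold change than SPRY4. The gene lies on chromosome 5 from 142310427 to 142326455, minus strand (GRCh38, ENSG00000187678). SPRY4-AS1, an antisense transcript that overlaps its 5′ end, had 0 to 1 read in resistant and 1 to 4 reads in control libraries. Small RNA genes ENSG00000274721 and ENSG00000277968 also lie within it, with at most 7 reads in any library.

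SPRY1, the paralog with the same domain plan, went the other way. It stood at 292, 312 and 328 normalized read counts in the resistant libraries and at 170.4, 165 and 162 in the control libraries. All resistant values were above all control values. The means were 310.4 ± 18.0 and 166 ± 4.30 (SD, n = 3), a log2 fold change of 0.90 ± 0.11 (SE; 95% interval 0.67 to 1.13; limma adjusted p = 4.58e-07). The rise was not at the extreme of the table, since 3147 genes had a higher log2 fold change. SPRY1 lies on chromosome 4 from 123396795 to 123403760, plus strand (ENSG00000164056), and no other gene of the tables overlaps it.

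SPRY2, a Sprouty known for binding CBL, fell by a modest amount. Normalized read counts were 299, 269 and 286 in resistant and 384, 397 and 408 in control libraries. The groups did not overlap. Means were 284 ± 15.2 and 396 ± 11.8 (SD, n = 3), with a log2 fold change of -0.48 ± 0.10 (SE; 95% interval -0.68 to -0.28; limma adjusted p = 0.000284). SPRY2 lies on chromosome 13 from 80335976 to 80340951, minus strand (ENSG00000136158).

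The start regions of SPRY1 and SPRY2 are shown because these paralogs changed in opposite directions. Each is the 250 bases before the RefSeq start site nearest the 5′ end of the gene in the tables, on GRCh38.p14, read on the gene's own strand. The first is chr4:123396545-123396794 (plus strand) and the second chr13:80341127-80341376 (minus strand). Capitals mark a match to the ETS core CCGGAA on either strand.
SPRY1: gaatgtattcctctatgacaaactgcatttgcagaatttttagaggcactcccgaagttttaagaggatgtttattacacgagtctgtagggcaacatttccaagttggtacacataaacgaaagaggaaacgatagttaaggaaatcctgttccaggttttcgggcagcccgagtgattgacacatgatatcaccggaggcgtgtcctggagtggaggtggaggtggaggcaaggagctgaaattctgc
SPRY2: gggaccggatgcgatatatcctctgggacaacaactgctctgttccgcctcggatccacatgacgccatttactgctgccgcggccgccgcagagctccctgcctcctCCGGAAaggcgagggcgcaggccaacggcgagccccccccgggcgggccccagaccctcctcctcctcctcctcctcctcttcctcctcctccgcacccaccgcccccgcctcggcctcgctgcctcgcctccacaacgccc
The windows differ in base composition, with 45.6% G and C for SPRY1 and 70.4% for SPRY2. Searches of both strands covered 4 motifs: CCGGAA (ETS core, present in 14.5% of 35116 RefSeq promoter windows of this length), TGANTCA (AP-1, 6.57%), TGACGTCA (CRE, 1.65%) and the CArG box of serum response factor (1.16%). SPRY2 held 1 ETS core, 142 bases before the start, and SPRY1 held no match to any of them. Among the other genes with a window, PHLDA1 held 1 ETS core, 89 bases before its start, and SPRY4, SPRED1, SPRED2 and SPRED3 held no match. Those 5 windows overlap annotated exons of their genes and are not printed. Their start sites lay inside the gene, 2208 bases from the 5′ end for SPRY4 and 2156 for PHLDA1. The distances were 510 bases for SPRED1, 276 for SPRED3 and 38 for SPRED2. The SPRY4, PHLDA1, SPRED1 and SPRED3 windows lie wholly inside the gene, so they do not cover the bases before its 5′ end. The SPRED2 window lies inside the gene only in part. IER3 had no window in the table.

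The make-up of the Sprouty pool differed between the lines. Per kilobase of gene model, which allows genes of different length to be compared, the summed level of SPRY1, SPRY2 and SPRY4 was 178, 173 and 185 in resistant and 234, 246 and 249.8 in control libraries. The pool was thus smaller in every resistant library. SPRY1 made up 41.3, 45.4 and 44.8% of it in resistant and 18.4, 17.0 and 16.4% in control libraries. Mean shares were 43.8 ± 2.20% and 17.2 ± 1.04% (SD, n = 3), with no overlap. SPRY4 went from 29.1 ± 1.35% of the pool in control to 3.79 ± 0.392% in resistant libraries. SPRY2 kept the largest share, 52.4 ± 2.43% in resistant and 53.6 ± 0.453% in control libraries, and its ranges overlapped. In resistant libraries that rank depended on the division by length. Undivided resistant means were 310.4 ± 18.0 normalized read counts for SPRY1 and 284 ± 15.2 for SPRY2. Two-sided exact permutation tests over the libraries gave p = 0.1 for the SPRY1 share, the SPRY4 share and the summed level, the smallest p that 3 against 3 allows, and p = 0.4 for the SPRY2 share. Transcripts of these 3 genes share identical runs of at most 20 bases in GENCODE 29.

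**Figure D2:**
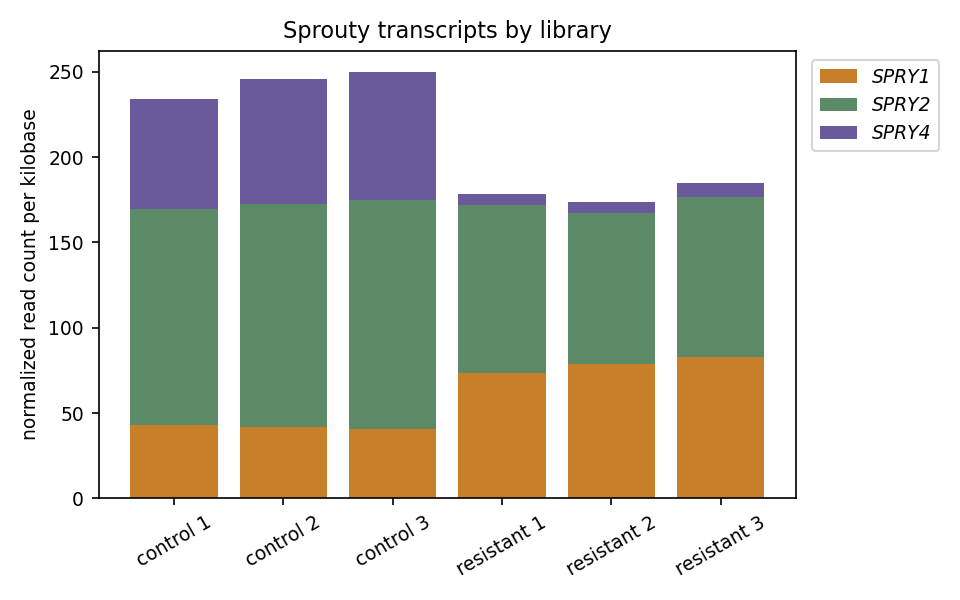
Stacked normalized read counts per kilobase of gene model (y axis, from 0) for SPRY1, SPRY2 and SPRY4 in each of 3 control and 3 resistant libraries. The mean height of the SPRY4 segment is 70.9 in control and 6.78 in resistant libraries, while that of SPRY1 is 41.9 and 78.3.

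The log2 ratio of SPRY1 to SPRY2 normalized read counts within a library, which does not depend on library scaling, was -0.035, 0.22 and 0.19 in resistant and -1.17, -1.26 and -1.33 in control libraries. All resistant ratios were above all control ratios. These counts are not divided by length, so the ratio compares the lines and not the levels of the genes; per kilobase SPRY2 was above SPRY1 in both lines. The mean ratio differed by 1.38 between the lines, with SDs of 0.14 and 0.080 (n = 3; exact permutation p = 0.1, two-sided, the smallest possible).

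SPRED1 and SPRED2, which tether NF1 to the membrane, fell by similar small amounts. SPRED1 stood at 428, 372 and 383 normalized read counts in resistant and at 494, 485 and 484 in control libraries. Resistant library 1 was the highest of its group and still below control. The means were 394 ± 29.9 and 488 ± 5.44 (SD, n = 3), a log2 fold change of -0.31 ± 0.09 (SE; limma adjusted p = 0.00756). This call ended when limma was run without the intensity trend (adjusted p = 0.0557). SPRED1 lies on chromosome 15 from 38252326 to 38357249, plus strand (ENSG00000166068).

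SPRED2 stood at 469, 423 and 432 in resistant and 599, 555 and 535 normalized read counts in control libraries. Again the groups did not overlap. Its means were 441 ± 24.5 and 563 ± 32.6 (SD, n = 3), with a log2 fold change of -0.35 ± 0.09 (SE; limma adjusted p = 0.0021). It lies on chromosome 2 from 65310851 to 65432637, minus strand (ENSG00000198369), and contains the sense intronic gene ENSG00000232693, which had at most 3 reads in any library. The log2 ratio of SPRED1 to SPRED2 was -0.16 ± 0.028 in resistant and -0.20 ± 0.067 in control libraries (SD, n = 3; exact permutation p = 0.4, two-sided), so no difference in this ratio between the lines was shown, in a design whose smallest p is 0.1.

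SPRED3, the least abundant of the SPRED genes per kilobase, did not pass the test. Its normalized read counts were 76.5, 55.4 and 65.1 in resistant and 65.7, 73.8 and 47.2 in control libraries, which interleave. The log2 fold change was 0.09 with a 95% interval from -0.34 to 0.51 (limma adjusted p = 0.771), and its sign turned with quantile normalization, with median centring, without resistant 1 (-0.027) and without control 3 (-0.096). With 49 to 75 reads per library, a change of the size seen for SPRED1 lies inside that interval. SPRED3 lies on chromosome 19 from 38388421 to 38399587, plus strand (ENSG00000188766), and shares an identical run of 33 bases with SPRED1, the longest among the SPRED pairs.

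PHLDA1, whose transcript is a common readout of ERK output, was 2.44-fold lower. Normalized read counts were 1711, 1887 and 1853 in resistant and 4251, 4360.3 and 4669 in control libraries. The highest resistant library was far below the lowest control library. Means were 1817 ± 93.0 and 4427 ± 217 (SD, n = 3), with a log2 fold change of -1.28 ± 0.07 (SE; 95% interval -1.42 to -1.15; limma adjusted p = 1.30e-13). A total of 1196 genes had a lower log2 fold change. PHLDA1 lies on chromosome 12 from 76025447 to 76033932, minus strand (ENSG00000139289), and overlaps PHLDA1-AS1, which had at most 6 reads in any library.

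IER3, also induced by NF-kB and other stress signals, was the most abundant of the 8 genes and did not pass the test. It stood at 10301, 8796 and 8654 normalized read counts in resistant and at 9214, 9347 and 8919.6 in control libraries. Resistant library 1 was above, and resistant libraries 2 and 3 below, all control libraries. The log2 fold change was 0.01 with a 95% interval from -0.13 to 0.15 (limma adjusted p = 0.922). Without resistant 1 it was -0.070 and without control 3 it was -0.0092. Quantile normalization made it a called rise of 0.17 (adjusted p = 0.0124), whereas centring on the median gave -0.12 (adjusted p = 0.119). IER3 lies on chromosome 6 from 30743199 to 30744554, minus strand (ENSG00000137331), and overlaps IER3-AS1, which had at most 1 read in any library.

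Per kilobase, IER3 led both lines by a wide margin, at 6822 ± 673 in resistant and 6755 ± 161 in control libraries (SD, n = 3). PHLDA1 came next, at 225 ± 11.5 and 549 ± 26.9. In control libraries the order then ran SPRY2 (130.4 ± 3.90), SPRED2 (109 ± 6.32), SPRY4 (70.9 ± 5.61), SPRED1 (59.0 ± 0.659), SPRY1 (41.9 ± 1.09) and SPRED3 (10.6 ± 2.32), with no overlap between neighbours in that order. In resistant libraries it ran SPRY2 (93.6 ± 5.0), SPRED2 (85.6 ± 4.76), SPRY1 (78.3 ± 4.54), SPRED1 (47.7 ± 3.62), SPRED3 (11.2 ± 1.80) and SPRY4 (6.78 ± 0.893). There SPRY2 overlapped SPRED2, and SPRED2 overlapped SPRY1. SPRY4 thus moved from the fifth place to the last, and from a level above 67.7% of all tested genes to one above 31.6%. SPRY1 moved from a level above 59.2% to one above 69.4%.

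Other transcripts induced by ERK fell in most cases. Of 13 such genes, 11 were lower and 1 was higher, against 21.1% and 20.4% of all genes tested (median log2 fold change -1.38, against 0.01). All genes tested include noncoding genes and genes with few reads, unlike most genes of this list and the lists below. CCND1, which encodes cyclin D1, fell from 5404 ± 133 to 1225 ± 76.8 normalized read counts, though it overlaps LTO1. DUSP6, a cytoplasmic ERK phosphatase, fell by 2.75 and DUSP4, a nuclear one, by 2.48 on the log2 scale (limma adjusted p = 6.84e-17 and 4.24e-16). LIF, a cytokine of the interleukin 6 family, was the member that rose, from 2460 ± 95.4 to 4737 ± 708 (log2 fold change 0.94). EPHA4 did not pass the test (-0.23). The SPRY4 log2 fold change of -3.36 lay between that of EGR1, an early growth response transcription factor (-4.39), and that of DUSP6 (-2.75), and EGR1 is named here after its value was seen.

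Relatives of PHLDA1 and IER3 were lower or did not pass the test. PHLDA2, an imprinted paralog of PHLDA1, fell from 1087 ± 24.9 to 166 ± 23.5 normalized read counts (log2 fold change -2.71, limma adjusted p = 3.77e-16). PHLDA3, an AKT inhibitor and p53 target, fell by 0.78, and IER2, an immediate early gene, by 1.26 on the log2 scale. IER5 (0.08) and IER5L (-0.02) did not pass the test. In all, 3 of 5 were lower and 0 of 5 higher, against 21.1% and 20.4% of all genes tested. The median was -0.78, and 0 of 5 were higher also with edgeR on recovered reads.

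**Figure D3:**
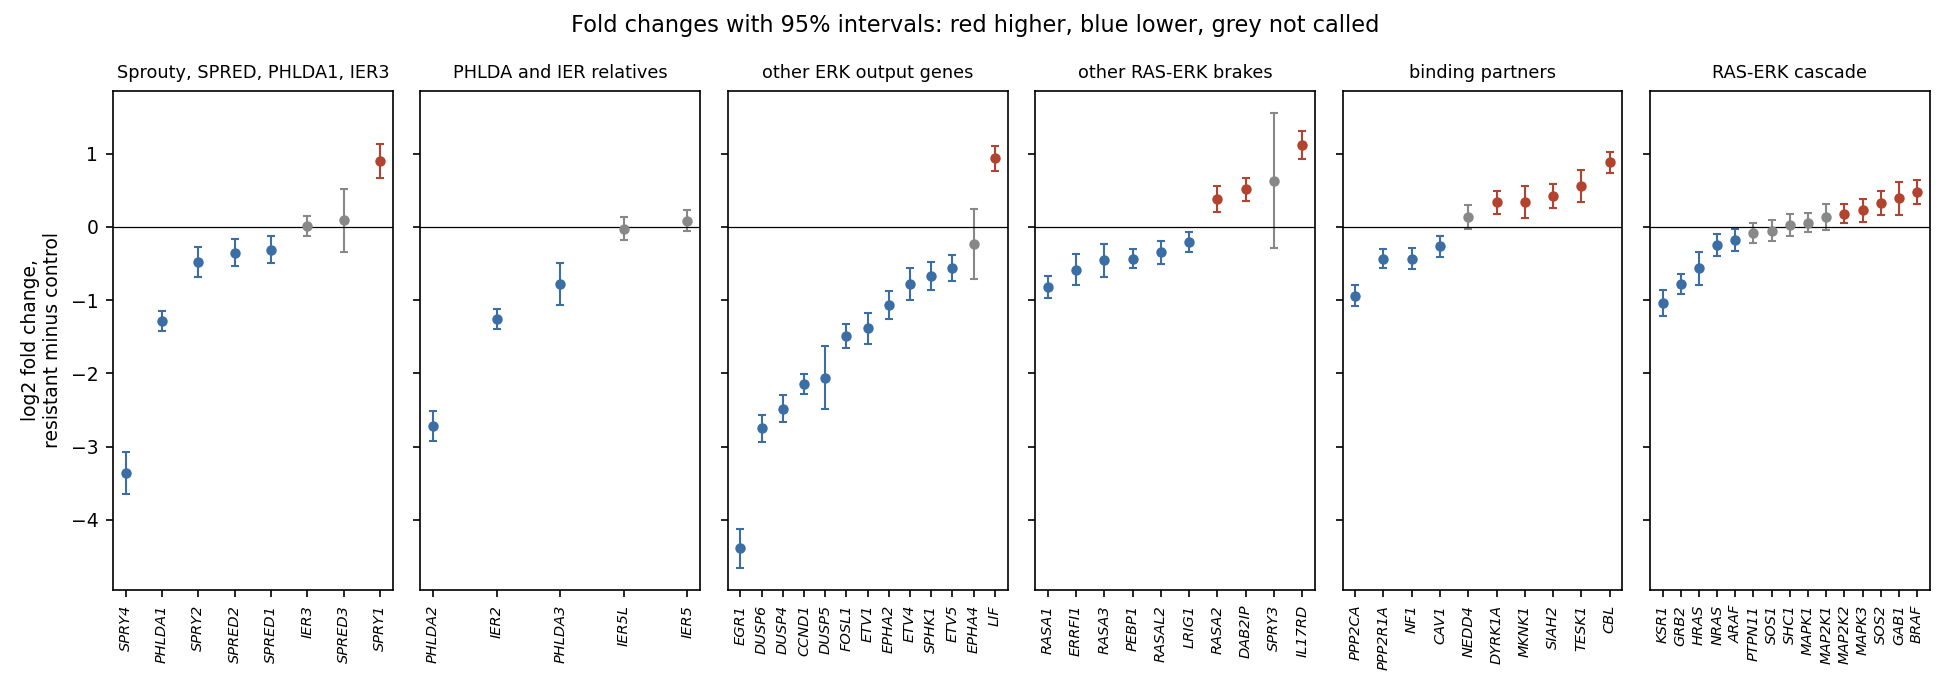
Log2 fold changes (y axis, resistant minus control, log2(normalized read count + 1)) with 95% intervals from limma for the 8 genes and 5 lists of pathway genes, the cascade list drawn in part; red marks genes called higher, blue lower and grey not called. The ERK output panel lies almost wholly below 0, while the RAS-ERK cascade spreads on both sides within about 1 log2 unit.

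Genes whose products bind or act on Sprouty and SPRED proteins moved in both directions (median log2 fold change 0.24). Of these, 5 of 10 were higher and 4 of 10 lower, against 20.4% and 21.1% of all genes tested. That larger set also holds noncoding genes and genes with few reads, and this list does not. CBL, the ubiquitin ligase that binds phosphorylated Sprouty, rose from 1049 ± 49.8 to 1934 ± 92.8 normalized read counts (log2 fold change 0.88, limma adjusted p = 2.65e-10). CBL overlaps MCAM, which had a log2 fold change of 2.0, and without strand reads of the overlap cannot be told apart. SIAH2, a ubiquitin ligase that degrades SPRY2, rose by a log2 fold change of 0.43. The kinases TESK1 (0.56), DYRK1A (0.33) and MKNK1 (0.35, overlapping MOB3C) rose as well; the MKNK1 call was lost without resistant 2 (0.26), control 1 (0.30) or control 2 (0.31), with median centring and without the limma trend. NF1, the RAS GTPase-activating protein that SPRED recruits, fell from 2121 ± 85.7 to 1573 ± 101 (-0.43). PPP2CA (-0.94) and PPP2R1A (-0.43), subunits of the phosphatase PP2A that acts on SPRY2, fell, and so did the caveolar protein CAV1 (-0.27), a call lost with quantile normalization and without the limma trend.

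Among other brakes on RAS and ERK, 6 of 10 were lower and 3 of 10 higher, against 21.1% and 20.4% of all genes tested (median log2 fold change -0.28). IL17RD, an antagonist of FGF receptor signalling also known as SEF, rose from 230.3 ± 9.76 to 501 ± 8.69 normalized read counts (1.12, limma adjusted p = 1.08e-09). The RAS GTPase-activating proteins DAB2IP and RASA2 rose by log2 fold changes of 0.52 and 0.38 (the RASA2 call was lost without the limma trend), while RASA1, which overlaps CCNH, fell by 0.82. PEBP1, a RAF kinase inhibitor protein, fell by 0.43 (it overlaps VSIG10), and ERRFI1, a direct inhibitor of EGFR, by 0.58. SPRY3, the fourth Sprouty gene and not one of the 8, was at 10.2, 11.1 and 7.9 in resistant and 8.2, 4.2 and 5.8 in control libraries and did not pass the test (limma adjusted p = 0.278).

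The cascade on which these inhibitors act moved in both directions. Of 17 genes, 7 were higher and 5 lower, against 20.4% and 21.1% of all genes tested. The median log2 fold change was 0.06 over members that went opposite ways. The split depended on the processing. With median centring 2 were higher and 7 lower, with quantile normalization 7 and 4, and without the limma trend 3 and 3. BRAF (0.48, overlapping NDUFB2) and SOS2 (0.33) rose; the SOS2 call ended with median centring and without the limma trend. KSR1, a scaffold of RAF, MEK and ERK, fell from 685 ± 25.7 to 333 ± 22.1 normalized read counts (-1.04), and GRB2, the adaptor that Sprouty proteins bind, from 2541 ± 29.6 to 1484 ± 84.2 (-0.78, limma adjusted p = 9.52e-10). HRAS fell by 0.57 and NRAS by 0.24. ARAF was at the edge of the threshold (-0.18, adjusted p = 0.0449), a call lost without resistant 2 (-0.17), resistant 3 (-0.18), control 1 (-0.16) or control 2 (-0.14), and the NRAS call was lost without control 3 (-0.20) and without the limma trend.

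The genes whose profiles over the 6 libraries were most like each of the 8 were sought among 11553 protein-coding genes with a mean of 50 or more, by Euclidean distance between centred log2 values. The nearest to SPRY1 was CBL (distance 0.061), followed by DAPK1 (0.069). SPRY2 was nearest to BCL2L12 (0.053), which overlaps IRF3, and to RETREG3 (0.069), which overlaps TUBG1. SPRY4 had no close match, the nearest being IGFBP2 (0.32), which went from 227 ± 15.5 to 22.4 ± 1.22 normalized read counts, and ATP10A (0.38). SPRED1 was nearest to CALCOCO2 (0.043) and ZMYND8 (0.044), and SPRED2 to TCN2 (0.071), which overlaps the far more abundant PES1, and TBC1D9B (0.078), which overlaps MRNIP. PHLDA1 was nearest to GLRX3 (0.078) and IFI35 (0.12). SPRED3 had PCDHB3 (0.21) and OXTR (0.22), and IER3 had RPL7A (0.031) and SHC1 (0.042, overlapping PYGO2), genes that also did not pass the test. With so many candidates a near match is easily found where a change is small.

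The genomic surroundings were compared next, as the 5 nearest tested protein-coding genes on each side of each member, which lay up to 14096 kb away. Of 80 such neighbours, 26.3% were higher and 27.5% lower, against 20.4% and 21.1% of all genes. The neighbours are protein-coding only, whereas all genes include noncoding ones, so these shares come from unlike sets. Around SPRY4 on chromosome 5, 7 of 10 were lower and 1 of 10 higher, with a median log2 fold change of -0.36, far short of the -3.36 of SPRY4 itself. FGF1, a fibroblast growth factor gene 266 kb from SPRY4, fell from 56.9 ± 4.05 to 17.7 ± 5.90 normalized read counts (-1.67). KCTD16 was the neighbour that was higher (1.65), a call lost without resistant 2 (1.58) or control 2 (1.27), with DESeq2 and without the limma trend.

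Around SPRY1 on chromosome 4, 5 of 10 neighbours were higher and 2 of 10 lower, with a median of 0.58. FAT4, an atypical cadherin gene 1913 kb away, rose from 204 ± 35.4 to 1237 ± 154 normalized read counts (2.60), HSPA4L from 402 ± 19.9 to 1286 ± 83.6 (1.68) and INTU by 1.04, the last 2 lying 4378 and 4219.5 kb away. The gene immediately before SPRY1, SPATA5, fell (-0.57), and the one after it, ANKRD50, did not pass the test (0.12); both are named for their position after their values were seen. With 10 genes on each side, 12 of 20 were higher around SPRY1 and 12 of 20 lower around SPRY4.

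Neighbours of the other 6 genes had medians from -0.23 to 0.19. SLITRK6, 5452 kb from SPRY2, fell from 189.9 ± 15.0 to 22.8 ± 1.90 normalized read counts, PNO1, 2725 kb from SPRED2, fell by 1.25, and CSRP2, 825 kb from PHLDA1, rose by a log2 fold change of 2.15. SCEL, SLITRK5 and GPC5 (2691, 7332 and 11058 kb from SPRY2), FSIP1 (1231 kb from SPRED1), and CATSPERG and GGN (17.5 and 0.339 kb from SPRED3) were also called with a fitted absolute log2 fold change above 1, all with means under 33 in both lines. GPC5 was at 2.60 ± 2.06 in resistant libraries and at 0 in every control library, and its call (limma adjusted p = 0.0487) was lost without control 1, 2 or 3 (adjusted p = 0.108, 0.107 and 0.0989), with quantile normalization (0.0586), with median centring (0.0695) and with pseudocounts of 0.1 (0.0839) and 0.01 (0.145). FSIP1, which overlaps THBS1, lost its call with edgeR, DESeq2, limma-voom, both smaller pseudocounts and no limma trend, and without resistant 1 (-0.62), control 1 (-1.04) or control 2 (-0.96). The CATSPERG call was lost without the limma trend.

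**Figure D4:**
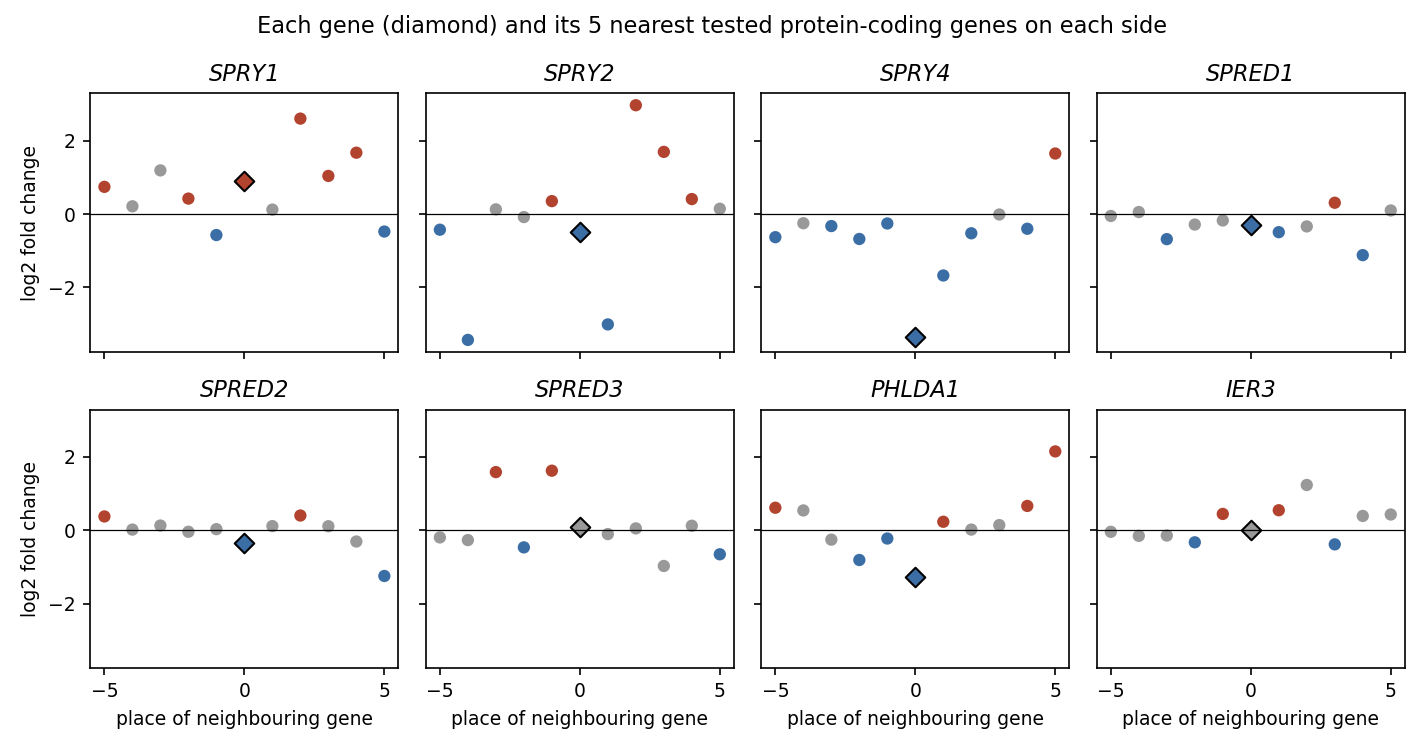
Log2 fold change (y axis, resistant minus control) of each of the 8 genes (diamond at place 0) and of the 5 nearest tested protein-coding genes on each side (points, ordered by position on the x axis); red is called higher, blue lower, grey not called. The SPRY4 diamond lies well below its 10 neighbours, of which 7 are blue, and SPRY1 lies within the range of its own.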

How the data were processed

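The authors deposited 1 table per library with a signal value per gene, gene coordinates and gene length. Per the submitters' processing notes the genome was GRCh38. Which aligner, counter, strand setting and normalization tool the authors used is not given in the sources used here. In each library 100% of deposited signal values were whole multiples of 1 number, within 0.001 reads, so they are read counts divided by a size factor and are called normalized read counts. Whole reads were recovered by dividing by that number. The authors' gene length (deposited as other annotation, in bases) gave levels per kilobase.

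The filter kept genes with a value of 1 or above in 3 or more libraries. On the log2(value + 1) scale, groups were compared with limma-trend (limma 3.58.1, R 4.3.3, robust, group only, two-sided) with Benjamini-Hochberg adjustment over 24560 genes and a threshold of 0.05. On recovered reads, DESeq2 1.42.0, limma-voom and the quasi-likelihood test of edgeR 4.0.16 served as alternatives; edgeR called 5002 genes higher and 5157 lower. Further alternatives were other scalings, filters, pseudocounts, a replicate block and each library left out. Only the main limma fit was tested on simulated counts with known changes. Symbols matched 30078 of 30330 identifiers.

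The members and lists were chosen with earlier results of these data known. Named genes are the 8 members, per list the 3 called members with the smallest adjusted p in each direction (every one where a direction has 5 or fewer), the 2 genes nearest in profile, overlapping genes, and neighbours called with an absolute log2 fold change of 1 or more. Promoter sequences came from RefSeq (GRCh38.p14). An exact permutation test cannot go below p = 0.1 here. Some members of the cascade list are counted but not reported here by name.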

Additional observations from a re-analysis of the deposited data

How the results depend on the processing

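Across 17 alternatives, SPRY1 (log2 fold change 0.76 to 0.94), SPRY2 (-0.61 to -0.44), SPRY4 (-3.49 to -3.30), SPRED2 (-0.48 to -0.30) and PHLDA1 (-1.42 to -1.21) kept their direction and call. SPRED1 (-0.44 to -0.27) lost its call only with limma without trend (-0.31, adjusted p = 0.0557). With quantile normalization 2 members were called higher in place of 1, since IER3 became higher (0.17), and SPRED3 was -0.025. With median centring SPRED3 was -0.046, IER3 -0.12 and SHC1 -0.11, and 2 cascade genes were called higher in place of 7; the share of all calls that were higher went from 49.1% to 35.8%. With limma without trend 3 cascade genes were higher and 3 lower. The ranges over libraries left out were -0.096 to 0.22 for SPRED3 and -0.070 to 0.056 for IER3. SPRED3 turned to -0.027 without resistant 1 and -0.096 without control 3, and IER3 to -0.070 and -0.0092 without the same libraries. PCDHB3 ranged from -0.063 (without control 3) to 0.33 and SHC1 from -0.065 (without resistant 1) to 0.078. RPL7A, at -0.00031 and -0.087 to 0.055 with libraries left out, turned to 0.0064 with edgeR, 0.0050 with DESeq2, 0.00015 with limma-voom, 0.031 and 0.055 without resistant 2 or 3, and 0.0056 and 0.0087 without control 1 or 2. The cause of these changes was not tested. The difference in SPRY1 share was 26.6 percentage points, 25.8 to 27.8 with libraries left out, and 32.4 without division by length.

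Replicate numbers are shared between the groups, but same-numbered libraries did not deviate together (correlations -0.0015, 0.00011 and 0.0067 across genes). These correlations span all tested genes, among them genes with few reads. They cannot show whether same-numbered libraries shared a culture or a day. With the replicate block 5003 genes were higher and 5172 lower, against 5010 and 5194 without it, and 5 members were lower and 1 higher, as before. ARAF lost its call under the block (adjusted p = 0.0513). Of 1048 other values for 63 named genes, 43 lost a call, 7 gained one and 10 changed sign. Low read numbers limit SPRED3, SPRY3, the antisense genes and low neighbours such as GPC5.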
